A study of Mus musculus with 6 samples.

Results

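The enzymes described here carry tryptophan through kynurenine to NAD, or make NAD from vitamin B3. They are the 10 genes Kynu, Kmo, Afmid, Haao, Qprt, Acmsd, Aadat, Naprt, Nadsyn1 and Nampt, taken by gene name from the deposited count table, and 10 of 10 were found among its 54532 named genes. The set was chosen by 1 measured value, the level of Kynu, the kynureninase gene, which is higher in the Lpar3-/- libraries, so the difference of Kynu between the groups is given as a description, and its place among the genes called supports nothing. The other 9 genes belong to the set by their place in the pathway, but their values come from the same 2 groups.

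Mouse kidneys were profiled by RNA sequencing after 12 h of systemic hypoxia in a normobaric chamber at 8% oxygen. There were 3 libraries from wild-type (WT) mice and 3 from mice of the genotype Lpar3-/-, which are described as lacking receptor 3 for lysophosphatidic acid, a signalling lipid. All 6 libraries come from hypoxic mice, and what is compared is the genotype, with no normoxic kidneys analysed here. The sources used here do not give age, sex or strain, how the allele was made, or whether each library is 1 animal, and p-values therefore measure the spread between libraries.

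Total counts in named genes were 15953794 to 17940438 per library. Lpar3 itself had 645, 634 and 577 counts in WT and 672, 592 and 580 in the second group, a log2 fold change of 0.0033 (SE 0.081). Because the targeted gene did not set the groups apart, its libraries are named below by their label, as labelled Lpar3-/-, on which each direction rests. In overall expression WT replicate 1 lay nearer to the libraries labelled Lpar3-/- (chi-square per degree of freedom 7.73 to 8.86) than to the other WT libraries (12.0 and 12.8). The nearest library to WT replicates 2 and 3 was also of that group, Lpar3-/- replicate 2 (12.0 and 10.6). WT replicates 2 and 3 lay 12.4 from each other, and farther from Lpar3-/- replicates 1 and 3 than from any WT library. Kidney identity was clear: the 9 proximal tubule markers summed to 7448 to 8539 CPM (counts scaled to a common library size) per library. The 6 liver genes listed summed to 29.9 to 46.8 CPM, most of it from Apoh (26.2 to 40.9 CPM). Of these 6, Apoa1 and Cps1 stayed under 1 CPM and Fgb was at 0 counts.

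In mammals most tryptophan is broken down along the kynurenine pathway, in which the ring is opened, hydroxylated and cleaved until quinolinate forms, and quinolinate is then turned into NAD. The proximal tubule of the kidney, like the liver, is known to hold the full set of late enzymes and can make NAD by this de novo route. NAD is also made from nicotinate and, by salvage, from nicotinamide. Kynurenine itself can instead be converted to kynurenate, a side branch that leads away from NAD.

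Promoter sequences are shown for 3 members that differ in behaviour: Kmo, whose groups did not overlap, Aadat, which had the next largest difference, and Haao, which is the most abundant and showed nearly no difference. They are RefSeq windows of 300 bases on GRCm38.p6, from 250 bases before to 50 bases after the annotated start, printed along the strand of the gene. Of the 10 members, 8 had an entry in that table, and Kynu and Naprt had none. Capitals mark matches, on both strands, to 4 short motifs: AGGTCA (the half-site of nuclear receptors), GTTAAT (a half-site of HNF1 factors), ACGTG (the core of hypoxia response elements) and GCGTG (the core bound by the aryl hydrocarbon receptor). The windows are chr1:175631943-175632242 (plus strand) for Kmo, chr8:60505874-60506173 (plus strand) for Aadat and chr17:83846741-83847040 (minus strand) for Haao.
Kmo: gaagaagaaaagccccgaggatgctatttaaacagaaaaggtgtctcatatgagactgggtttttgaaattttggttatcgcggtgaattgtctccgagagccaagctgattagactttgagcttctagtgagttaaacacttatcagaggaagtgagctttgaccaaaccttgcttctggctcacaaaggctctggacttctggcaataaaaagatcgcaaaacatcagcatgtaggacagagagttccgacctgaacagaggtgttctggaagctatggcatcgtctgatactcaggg
Aadat: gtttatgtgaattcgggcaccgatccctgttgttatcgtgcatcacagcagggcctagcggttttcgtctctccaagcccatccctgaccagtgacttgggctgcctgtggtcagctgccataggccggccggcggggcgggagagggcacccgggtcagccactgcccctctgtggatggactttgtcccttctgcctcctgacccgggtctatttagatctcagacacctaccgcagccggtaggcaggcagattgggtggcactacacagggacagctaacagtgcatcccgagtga
Haao: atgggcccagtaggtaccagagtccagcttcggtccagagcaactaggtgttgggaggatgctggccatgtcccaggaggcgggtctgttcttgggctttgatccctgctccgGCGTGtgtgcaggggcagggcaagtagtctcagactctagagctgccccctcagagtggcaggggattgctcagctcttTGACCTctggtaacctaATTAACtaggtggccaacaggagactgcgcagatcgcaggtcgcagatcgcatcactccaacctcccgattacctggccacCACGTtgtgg
The Kmo and Aadat windows held 0 matches to any of the 4 motifs, and the Haao window held 1 match to each. Among the windows not printed, those of Qprt and Nadsyn1, whose groups overlapped, also held 0 matches. The window of Afmid held 1 (ACGTG) and that of Acmsd 1 AGGTCA and 1 GCGTG. That of Nampt held 1 AGGTCA, 1 ACGTG and 5 GCGTG. Over all 32851 windows of this length, 16.3% held AGGTCA, 7.10% GTTAAT, 19.6% ACGTG and 32.4% GCGTG. A match is a description of the letters only, and the deposited Kmo gene begins upstream of the RefSeq start used here.

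The 10 enzymes were expressed at very different levels. On the FPKM scale, which divides by gene length and so allows genes to be compared, Haao stood at 141 ± 5.33 (SD over the 6 libraries) and Kynu at 2.98 ± 1.14. Haao encodes the dioxygenase that opens the ring of 3-hydroxyanthranilate just before quinolinate forms, and its lowest library (133 FPKM) lay above the highest of any other member. Aadat, which makes kynurenate, followed at 98.4 ± 12.2 FPKM.

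Below these came a group of 5 genes of similar level: Nampt at 38.0 ± 2.20, Qprt at 31.7 ± 3.08, Acmsd at 26.4 ± 1.92, Kmo at 26.4 ± 5.56 and Naprt at 23.5 ± 1.69 FPKM. Each of these overlapped its neighbour in the order over the 6 libraries. Nadsyn1 (10.5 ± 0.885 FPKM), Afmid (6.19 ± 0.765 FPKM) and Kynu lay below, each apart from its neighbour. Kynu was thus the least abundant member in both groups, with 1.98 ± 0.426 FPKM in WT and 3.98 ± 0.215 FPKM in the libraries labelled Lpar3-/- (SD, n = 3 each).

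**Figure D1:**
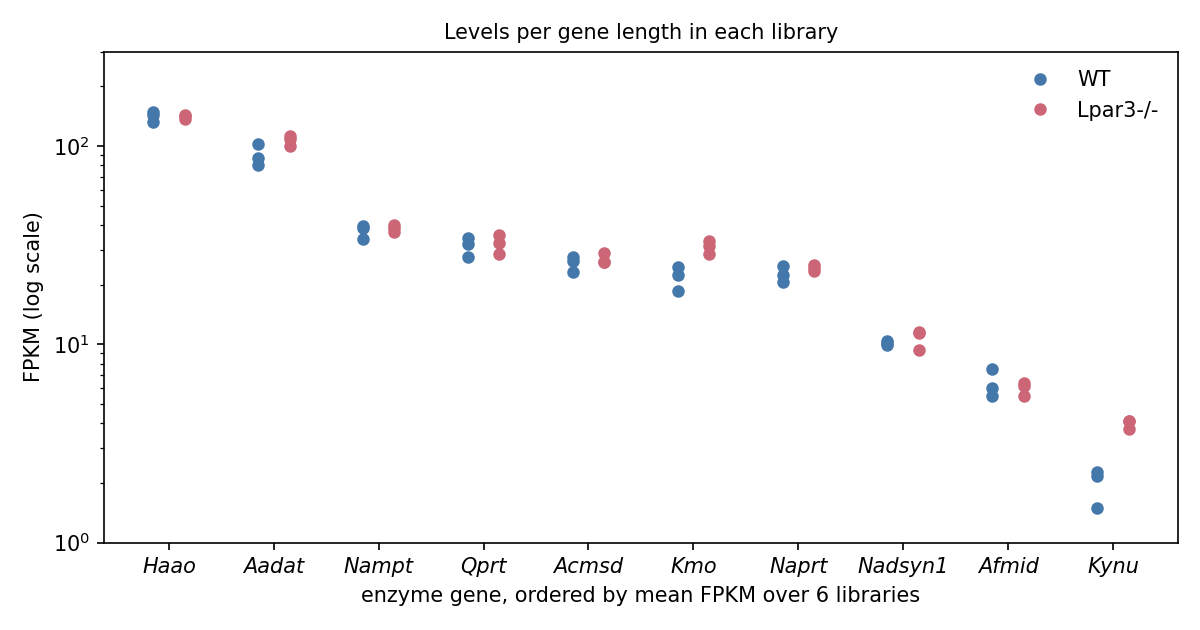
FPKM (log axis) of the 10 enzyme genes, ordered by their mean over the 6 libraries, with 1 point per library and the groups in 2 colours. Haao lies highest with a mean of 141 FPKM and Kynu lowest with 2.98, and the points of the groups are apart for Kynu and Kmo.

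Among the members, the largest differences between the groups were those of Kynu and Kmo. Kynu and its neighbour Kmo were higher in each of the 3 libraries labelled Lpar3-/- than in any WT library, whereas the later enzymes Haao and Qprt and the salvage enzyme Nampt had nearly equal means. Over all genes, edgeR's quasi-likelihood test with Benjamini-Hochberg adjustment called 0.374% of the 15225 genes tested at an adjusted p under 0.05, and 0.125% called higher in the libraries labelled Lpar3-/-. All 10 members passed the filter on low counts, and 1 was called, Kynu, from which nothing is read because it was picked for this difference. Of the other 9, edgeR called 0, DESeq2 called 1 (Kmo) and limma-voom called 0, and 2 (Kmo and Aadat) had an unadjusted p under 0.05, where 9.18% of all genes had one (3.97% with a positive and 5.21% with a negative log2 fold change). The 9 had a median log2 fold change of 0.062, with 7 above 0, against a median of -0.0036 over all genes tested, of which 48.9% were above 0.

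**Figure D2:**
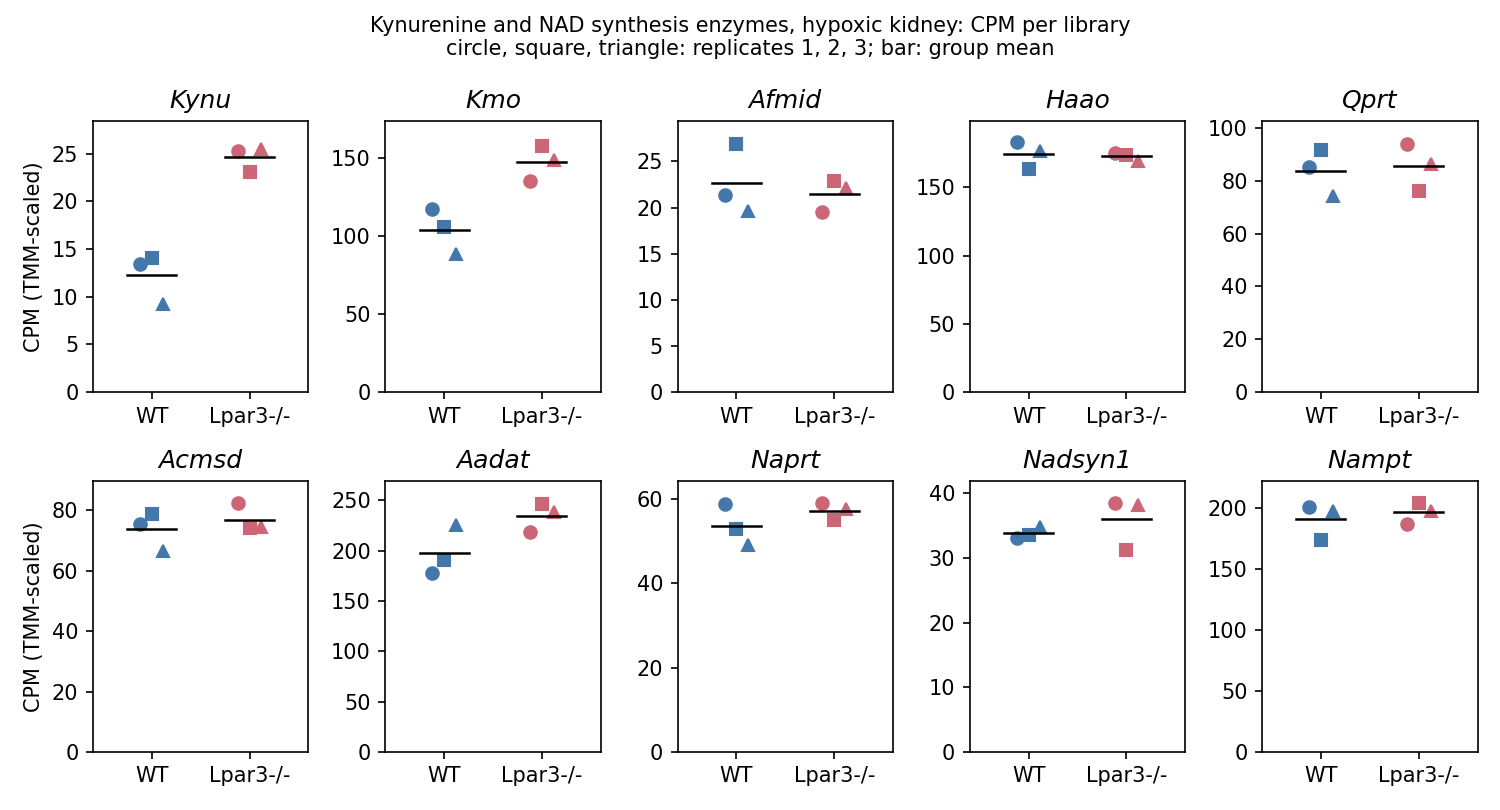
CPM per library for each of the 10 enzymes, with circles, squares and triangles for replicates 1 to 3, a bar at the group mean, and axes that start at 0. The groups are apart for Kynu and Kmo and overlap for the other 8 genes.

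Afmid, the formamidase that releases kynurenine after the first ring opening, had close means in the groups. Its levels were 21.4, 26.9 and 19.7 CPM in WT and 19.5, 22.9 and 22.1 CPM in the libraries labelled Lpar3-/-. The ranges of the groups overlapped almost fully, with a log2 fold change of -0.076 (SE 0.12, edgeR adjusted p = 0.913), and the sign turned without WT replicate 2 (0.065). Exons of Afmid overlap those of Tk1 and Gm20708 in the annotation, so its counts are less certain.

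Kmo encodes the flavin-dependent monooxygenase of the outer mitochondrial membrane that hydroxylates kynurenine and commits it to the NAD branch. The gene (ENSMUSG00000039783) lies on GRCm38 chromosome 1 from 175620381 to 175662116, plus strand, and no exon of another gene overlaps it. It had 117, 106 and 88.6 CPM in the WT libraries and 135, 157 and 149 CPM in the libraries labelled Lpar3-/-. The highest WT library, replicate 1, still lay below the lowest of the other group, also replicate 1. Such a separation towards higher values was seen in 6.58% of all genes tested. Kmo was 1.41-fold higher on average (104 ± 14.5 against 147 ± 11.3 CPM, SD, n = 3 each), a log2 fold change of 0.50 (SE 0.099, 95% interval 0.28 to 0.72).

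With an edgeR adjusted p of 0.0635, Kmo did not pass the threshold of 0.05 in the fit of all 6 libraries. It passed with DESeq2 (adjusted p = 0.000423), without a filter on low counts (5.88e-07 by edgeR) and without WT replicate 1 (0.0154 by edgeR), while the other fits left it above the threshold, up to an adjusted p of 0.310 by edgeR without Lpar3-/- replicate 2.

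Kynu encodes kynureninase, which uses vitamin B6 as cofactor to cleave 3-hydroxykynurenine to 3-hydroxyanthranilate, the substrate of Haao. The gene (ENSMUSG00000026866) lies on GRCm38 chromosome 2 from 43555329 to 43682715, plus strand, with no overlapping exon of another gene. The counts were 239, 237 and 153 in WT and 444, 367 and 442 in the libraries labelled Lpar3-/-. Scaled to library size, these are 13.5, 14.0 and 9.25 CPM against 25.3, 23.1 and 25.5 CPM. WT replicate 3 lay lowest, as it did for Kmo, and the gap between the groups was wider than the spread within either. The mean was 2.01-fold higher in the libraries labelled Lpar3-/-, a log2 fold change of 1.01 (SE 0.14), and it lay between 0.85 and 1.11 when any one library was left out. The set was chosen for this difference, so the gap and this range are a description only.

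**Figure D3:**
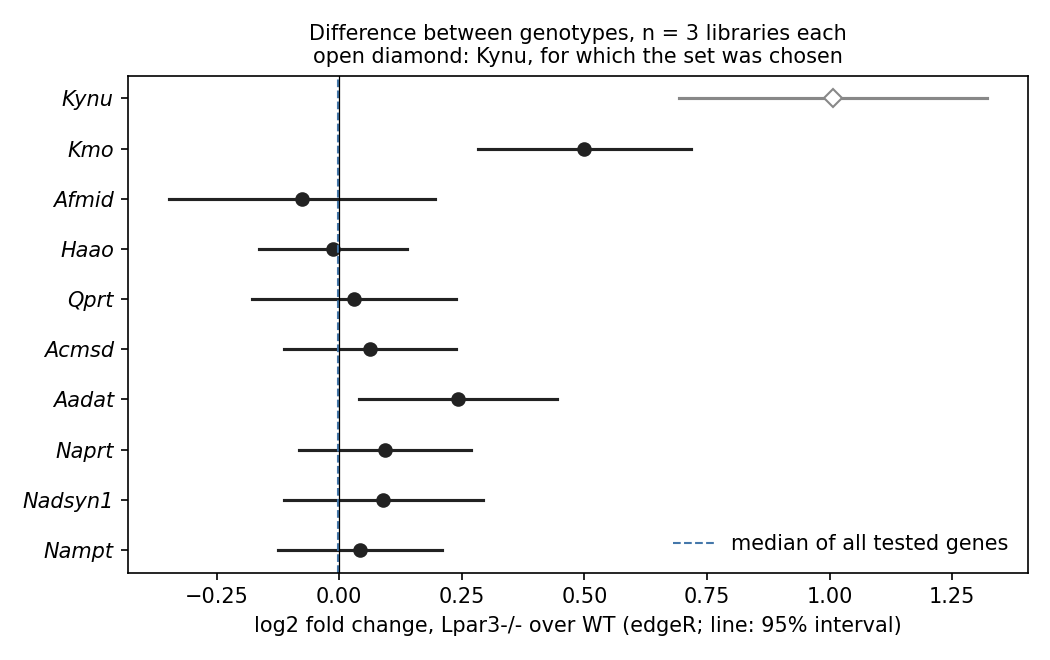
Log2 fold change of each enzyme, libraries labelled Lpar3-/- over WT, with 95% intervals from the edgeR fit, and an open diamond for Kynu, for which the set was chosen. Kynu (1.01) and Kmo (0.50) lie farthest to the right, and the intervals of the others except Aadat include 0.

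Haao, the next enzyme after Kynu, had 183, 163 and 177 CPM in WT and 175, 174 and 170 CPM in the libraries labelled Lpar3-/-. All 3 libraries of the second group lay within the WT range. The means differed by -0.013 on the log2 scale, with a 95% interval of -0.16 to 0.14 (edgeR adjusted p = 0.981), and its sign turned without WT replicate 1 (0.025), WT replicate 3 (0.00048) or Lpar3-/- replicate 3 (0.0033). The interval leaves out a change of the size seen for Kmo.

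After Haao the route divides. Acmsd encodes the decarboxylase that draws the Haao product away from NAD, and Qprt encodes the transferase that turns quinolinate into the mononucleotide on the way to NAD. Qprt had 85.3, 91.5 and 74.3 CPM in WT against 94.1, 76.0 and 86.2 CPM, and Acmsd had 75.6, 78.9 and 66.7 against 82.4, 74.1 and 74.4 CPM. The groups overlapped for both genes, with log2 fold changes of 0.030 (SE 0.095) and 0.062 (SE 0.080) and edgeR adjusted p of 0.962 and 0.884. The sign of Qprt turned without WT replicate 3 or Lpar3-/- replicate 1 (-0.045 for each), and that of Acmsd without WT replicate 3 (-0.0012). An exon of Acmsd overlaps one of 2900009J06Rik on the other strand.

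The ratio between the branches varied little between libraries. The ratio of Qprt to Acmsd in FPKM was 1.21, 1.24 and 1.19 in WT and 1.22, 1.10 and 1.24 in the libraries labelled Lpar3-/-, which an exact two-sided permutation test over samples did not separate (p = 0.80, Benjamini-Hochberg adjusted p = 0.90 over 4 ratios, where 0.10 is the smallest p that 3 against 3 allow). The ratio of Kmo to Haao was 0.166, 0.168 and 0.130 in WT and 0.199, 0.235 and 0.227 in the other group, without overlap and at that smallest exact permutation p of 0.10 (adjusted p = 0.40). This ratio was picked with the values of both genes known. The ratio of Kynu to Haao, given as a description, was 0.0140 ± 0.00337 in WT and 0.0284 ± 0.00175 in the libraries labelled Lpar3-/- (SD, n = 3 each).

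Aadat encodes a vitamin B6-dependent aminotransferase that converts kynurenine to kynurenate. It had 177, 191 and 225 CPM in WT and 218, 246 and 238 CPM in the libraries labelled Lpar3-/-. WT replicate 3, the lowest WT library for Kynu and Kmo, was the highest for Aadat and lay within the other group. This is a log2 fold change of 0.24 (SE 0.092, with 0.041 to 0.44 as its 95% interval) at an unadjusted p of 0.0224 and an edgeR adjusted p of 0.418, so Aadat did not pass over all genes, and it stayed above the threshold in the other 15 settings tried. In WT the ratio of Aadat to Kmo spread from 3.28 to 5.52, whereas it lay between 3.39 and 3.50 in the libraries labelled Lpar3-/- (exact permutation p = 0.40, adjusted p = 0.80 over 4 ratios).

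The enzymes of salvage, of the nicotinate route and of the final step to NAD had nearly equal means. Nampt, the rate-limiting enzyme of nicotinamide salvage, had 201, 173 and 197 CPM in WT and 187, 204 and 198 CPM in the libraries labelled Lpar3-/-. Its log2 fold change was 0.043 (SE 0.077, 95% interval -0.13 to 0.21, edgeR adjusted p = 0.925), and the sign turned without WT replicate 2 (-0.021). Naprt, which starts the route from nicotinate, had 58.9, 53.0 and 49.1 against 59.1, 55.1 and 57.6 CPM, with an edgeR adjusted p of 0.810 (log2 fold change 0.093, SE 0.081), and it shares an exon region with Eef1d on the same strand. Nadsyn1, the synthetase that ends both the de novo and the nicotinate routes, had 33.1, 33.6 and 34.8 against 38.5, 31.2 and 38.3 CPM, with an edgeR adjusted p of 0.851 (log2 fold change 0.090, SE 0.093). In all 3 genes the groups overlapped.

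**Figure D4:**
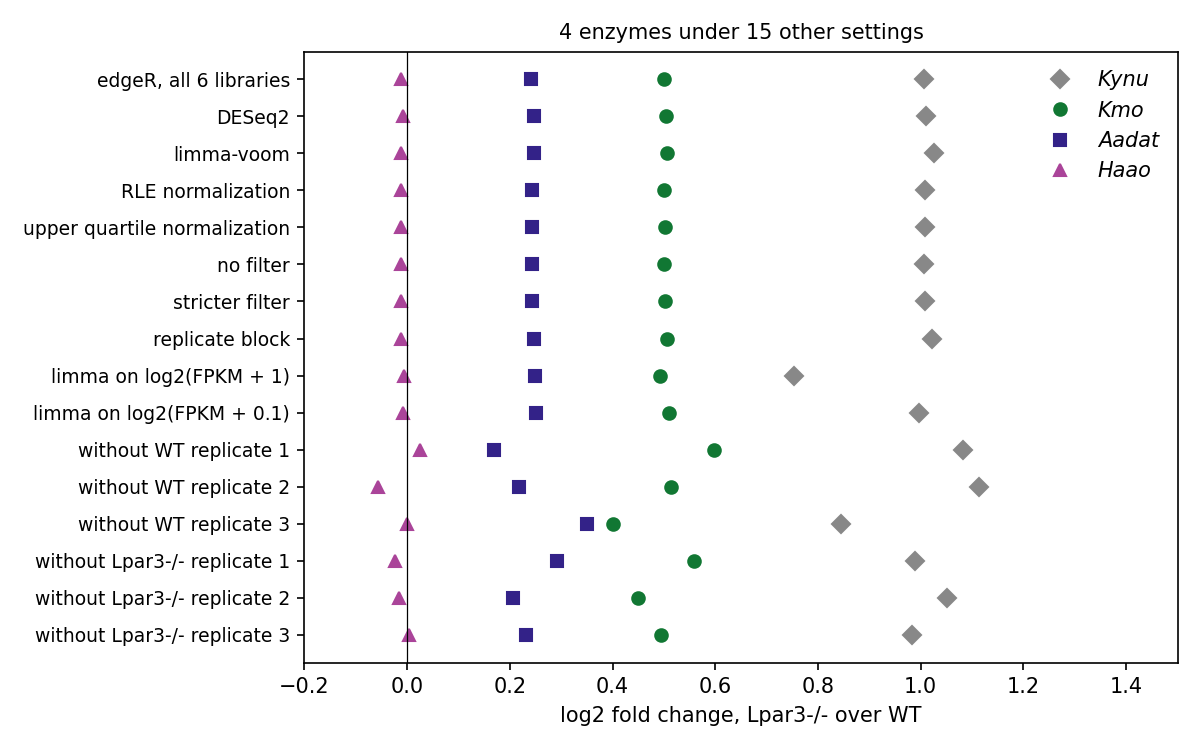
Log2 fold change of Kynu, Kmo, Aadat and Haao, libraries labelled Lpar3-/- over WT, in the fit of all 6 libraries (top) and under 15 other settings. Kmo stays between 0.40 and 0.60 and Kynu between 0.75 and 1.11, while Haao lies on both sides of 0.

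Beyond the 10 enzymes, 7 lists of related genes were examined, of which 55 genes were tested. By edgeR 0 were called, by limma-voom 0, and by DESeq2 2 (Ddc and Slc7a8). An unadjusted p under 0.05 was reached by 13 of the 55 (23.6%), 8 higher and 5 lower, against 9.18% of all genes. The median log2 fold change of the 55 was 0.032. The lists were chosen with earlier results of these data known, so these shares are a description and no enrichment is read from them.

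Genes before and beside the kynurenine pathway came next. Of 10 listed genes of tryptophan entry and its side branches, 7 were tested, 7 had a positive log2 fold change and 4 an unadjusted p under 0.05, with a median of 0.17. Over all genes 48.9% had a positive log2 fold change and 3.97% were higher at that p. The classical first enzymes were nearly silent: Tdo2 had 4 to 16 counts per library and Ido1 at most 2, and neither was tested. Ido2, a less active relative of Ido1, was measured at 11.0, 7.63 and 7.68 CPM in WT and 11.0, 12.8 and 13.1 CPM in the libraries labelled Lpar3-/-. Its groups only just failed to overlap, where 6.58% of all genes tested were separated towards higher values. It did not pass over all genes (log2 fold change 0.48, SE 0.16, edgeR adjusted p = 0.349).

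Ddc, a vitamin B6-dependent decarboxylase that makes dopamine and serotonin and is abundant in proximal tubules, had the lowest p of that list. It had 153, 133 and 110 CPM in WT and 194, 175 and 192 CPM in the libraries labelled Lpar3-/-. As for Kynu and Kmo, WT replicate 3 was lowest and the groups did not overlap, a separation seen in 6.58% of all genes tested. The log2 fold change was 0.50 (SE 0.11). The edgeR adjusted p was 0.0750, and it fell under the threshold without WT replicate 1 (0.0104), with the replicate number as a block (0.0497) and with DESeq2 (0.000538). Kyat3, another kynurenine aminotransferase, and Gcdh, a dehydrogenase of the glutaryl branch fed by Acmsd, had log2 fold changes of 0.19 and 0.17 (edgeR adjusted p = 0.519 and 0.474).

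Transporters had differences of both signs. Of 10 tested, 2 were higher (3.97% of all genes) and 3 lower (5.21% of all genes) at an unadjusted p under 0.05. Slc7a8, a basolateral carrier of neutral amino acids, had 98.6, 90.3 and 84.2 CPM in WT and 119, 117 and 116 CPM in the libraries labelled Lpar3-/-. The second group was tight and lay above all WT libraries, as in 6.58% of all genes tested, with a log2 fold change of 0.36 (SE 0.072, edgeR adjusted p = 0.0635). The call was reached without WT replicate 1 (0.0219 by edgeR) and with DESeq2 (0.00351). Slc6a19, the main apical carrier of neutral amino acids including tryptophan, had 533 ± 24.1 against 628 ± 33.9 CPM (log2 fold change 0.24, edgeR adjusted p = 0.293). Slc7a5, a carrier of tryptophan and kynurenine, was scarce (3.92 ± 0.765 against 2.35 ± 0.210 CPM, log2 fold change -0.74, edgeR adjusted p = 0.318). Slc22a6, an organic anion transporter, and Slc16a10, an aromatic amino acid carrier, had log2 fold changes of -0.19 and -0.16 (edgeR adjusted p = 0.529 and 0.540).

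**Figure D5:**
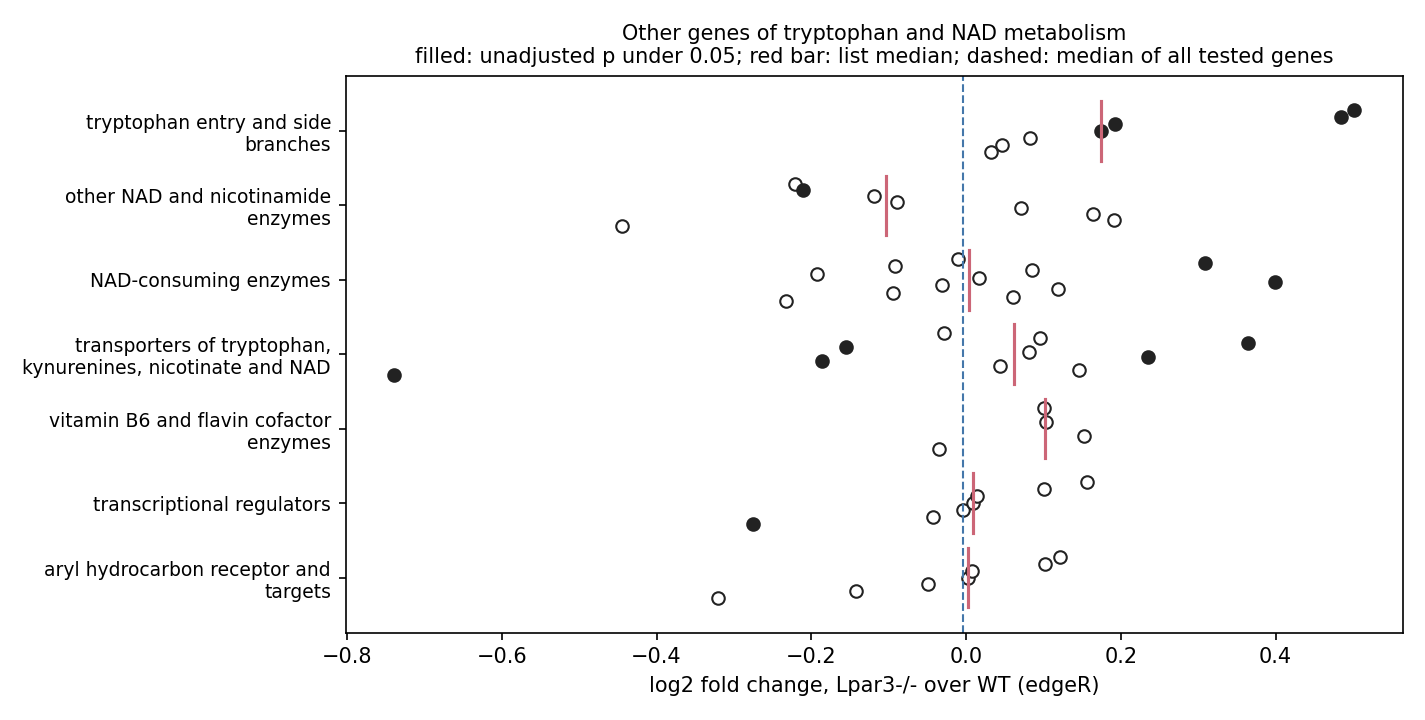
Log2 fold change of the 55 tested genes in 7 related lists, libraries labelled Lpar3-/- over WT, with filled points for an unadjusted p under 0.05, a red bar at each list's median and a dashed line at the median of all genes. The list of tryptophan entry and side branches lies wholly above 0 with a median of 0.17, and the other lists straddle 0.

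Other enzymes make or modify NAD and nicotinamide. Of 8 tested, 0 were higher (3.97% of all genes) and 1 lower (5.21% of all genes) at an unadjusted p under 0.05. That gene was Nadk2, the mitochondrial kinase that makes NADP, with 182, 160 and 170 CPM in WT and 141, 153 and 149 CPM in the libraries labelled Lpar3-/- (log2 fold change -0.21, SE 0.073, edgeR adjusted p = 0.364). Its groups did not overlap, in the direction opposite to Kmo, as was seen in 7.12% of all genes tested. Of 12 tested NAD-consuming enzymes 2 were higher and 0 lower at that threshold: Parp2, a DNA damage sensor (11.7 ± 0.621 against 14.5 ± 0.749 CPM, edgeR adjusted p = 0.402), and Bst1, an ectoenzyme that cleaves NAD (16.4 ± 3.45 against 21.6 ± 3.52 CPM, edgeR adjusted p = 0.448). An exon of Bst1 overlaps one of Fbxl5. The 7 sirtuins had edgeR adjusted p of 0.748 or more.

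Cofactor enzymes and regulators were examined last. Of 4 tested genes that make the active forms of vitamin B6 and flavins, the cofactors of Kynu and Kmo, 0 had an unadjusted p under 0.05, and Rfk, the riboflavin kinase, had 167 ± 11.5 against 186 ± 5.95 CPM. Among 7 transcriptional regulators, Ppara, the fatty acid-sensing nuclear receptor, had the lowest p, with 103, 106 and 94.0 CPM in WT against 86.3, 86.8 and 77.1 CPM, with an edgeR adjusted p of 0.206 (log2 fold change -0.28, SE 0.075). Kynurenine and kynurenate are known ligands of the aryl hydrocarbon receptor. Of the 7 genes for this receptor, its partners and targets, 0 had an unadjusted p under 0.05, and Arnt, the partner of the receptor, had 48.7 ± 0.791 against 48.8 ± 3.41 CPM.

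Genes with a pattern like that of Kynu were sought by the Pearson correlation of log2 CPM over the 6 libraries. Ranked were 10661 other tested genes with a mean of at least 5 CPM, leaving out predicted and clone-named genes (Gm, Rik, AC, AL and BC names). The 5 closest were Lyrm1 (0.995), Oat (0.994), Fut9 (0.990), Grip1 (0.988) and Dpys (0.988), and among the members Kmo came nearest at 0.940 and Haao was lowest at -0.206. The correlation mixes the difference between groups with the spread within them, and it carries no test. Oat, a vitamin B6-dependent enzyme that breaks down ornithine, had 172, 169 and 153 CPM in WT and 216, 204 and 212 CPM in the libraries labelled Lpar3-/-. It was picked for following Kynu, so these values are a description. Dpys, an enzyme of pyrimidine breakdown, had the largest difference of the 5 (15.4, 12.9 and 7.68 against 35.0, 26.1 and 32.3 CPM).

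Markers of cell types were set beside these values, since in whole kidney fewer cells of a type and less RNA per cell cannot be told apart. The 9 proximal tubule markers summed to 7905 ± 430 CPM in WT and 8164 ± 333 CPM in the libraries labelled Lpar3-/- (SD, n = 3 each), with overlap, and 1 was higher (Slc5a12) and 1 lower (Slc5a2) at an unadjusted p under 0.05. With DESeq2 Slc5a12 passed the threshold (adjusted p = 0.00351) and Slc5a2 did not (0.0939). Macrophages are known to express Kynu and Kmo as well. All 8 tested macrophage markers had negative log2 fold changes, and 4 of the 8 (C1qa, C1qb, C1qc and Cd74) were lower at an unadjusted p under 0.05, against 5.21% of all genes. Without WT replicate 2 the log2 fold change of Cd74, the most abundant of them, moved from -0.67 to -0.11. With any one library left out, C1qa stayed between -0.66 and -0.43, C1qb between -0.74 and -0.36 and C1qc between -0.79 and -0.42. The macrophage markers summed to 250, 508 and 264 CPM in WT and 217, 236 and 255 CPM in the libraries labelled Lpar3-/-. The groups overlapped in this sum, most of which was Cd74, and WT replicate 2 lay far above the others. All 6 adipocyte markers had negative log2 fold changes, with summed levels of 149 to 271 against 114 to 168 CPM. Most of the sum came from Fabp4, with a log2 fold change of -0.40. Those of Adipoq, Plin1, Cidec and Retn were larger, at -1.49, -1.51, -1.78 and -2.02. These 5 had an unadjusted p under 0.05 by edgeR, where 5.21% of all genes were lower, and edgeR called 0 of the 6 markers with all libraries. DESeq2 called Adipoq (adjusted p = 0.00138), Plin1 (0.000391) and Retn (0.0291), but not Cidec (0.0837) or Fabp4 (0.980). With 1 library left out, the lowest edgeR adjusted p was 0.0119 for Cidec, 0.0453 for Plin1 and 0.0456 for Retn. It stayed above 0.05 for Adipoq and Fabp4.

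Of the neutrophil markers Mpo was at 0 counts, and the list summed to 4.14 CPM or less in every library, with S100a8 lower at an unadjusted p under 0.05. Liver markers summed to 29.9 to 37.6 CPM in WT and 35.1 to 46.8 CPM in the libraries labelled Lpar3-/-, most of it from Apoh, which was higher at an unadjusted p under 0.05. All 4 distal nephron markers had positive log2 fold changes, against 48.9% of all genes, and Slc12a1 was higher at an unadjusted p under 0.05. Its edgeR adjusted p was 0.0613. Slc12a1 passed the threshold in 5 of the 15 other settings, among them DESeq2 (adjusted p = 1.98e-05) and limma-voom (0.0496). The summed level of the 4 markers was 4390, 3967 and 4230 CPM in WT and 4712, 4751 and 5072 CPM in the libraries labelled Lpar3-/-, without overlap and in the same direction as Kynu and Kmo. Red cell genes led by Hbb-bs summed to 342 to 625 against 319 to 563 CPM. The part of any of these cell types in the values of the enzymes was not tested.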

How the data were processed

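The authors' deposited count table gives unnormalized whole-number counts of reads for each gene and library. The submitters' processing notes name HISAT2 2.0.5, featureCounts 1.5.0-p3 and the build GRCm38, besides DESeq2 1.20.0, without their roles. The sources used here do not give strand setting, annotation release or the handling of multi-mapped reads. The authors' deposited FPKM equal these counts divided by gene length and an effective library size (largest relative deviation 4.11e-08, genes with at least 20 counts), and served for levels between genes and an alternative test.

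The 377 rows without a gene name (0.259% to 0.362% of counts) were left out. All 6 libraries, grouped by title, were fitted with edgeR 4.0.16 in R 4.3.3 (quasi-likelihood F-test, TMM, default filter, no covariate, Benjamini-Hochberg over 15225 genes). Log2 fold changes are Lpar3-/- over WT, CPM use TMM-scaled library sizes, and SE come from the fold change and F. Alternatives were DESeq2 1.42.0, limma-voom and limma on FPKM (limma 3.58.1), 2 other normalizations, 2 other filters, a replicate block and leaving out each library. The edgeR, DESeq2 and limma-voom tests were also run on simulated data with known fold changes, and the outcome is not reported here. Overlapping exons were read from GENCODE M21. The members and lists were chosen with earlier results of these data known. Named were all members, Lpar3, genes of the lists at an unadjusted p under 0.05 (or the most expressed gene of a list with none) and the 5 genes most like Kynu. Outside this rule, Tdo2, Ido1, Apoa1, Cps1, Fgb, Mpo and Nnt were named after their values were seen.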

Additional observations from a re-analysis of the deposited data

How the results depend on the processing

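Over all genes edgeR called 57 (19 higher, 38 lower). The count was 173 with DESeq2, 520 without a filter, 9 and 13 with limma on log2(FPKM + 1) and log2(FPKM + 0.1), 80 with the replicate block, and 12 to 149 when 1 library was left out. Of the 10 members, 1 was called, against 2 with DESeq2 or no filter, 0 with either FPKM fit, and 0 to 2 with a library left out (0 without Lpar3-/- replicate 1 or 3, 2 without WT replicate 1). Of the related genes 0 were called, against 2 with DESeq2 or no filter (Ddc and Slc7a8), 1 with the replicate block (Ddc), and 0 to 2 with a library left out. The causes of these shifts were not tested. Among the named genes, signs turned only where 1 library was left out: Haao ran from -0.058 to 0.025, Afmid from -0.16 to 0.065, Nampt from -0.021 to 0.084, Qprt from -0.045 to 0.11, Acmsd from -0.0012 to 0.11, Lpar3 from -0.035 to 0.062, Arnt from -0.035 to 0.059 and Hbb-bs from -0.37 to 0.10. The log2 fold change of Kynu on the log2(FPKM + 1) scale was 0.75, since the pseudocount understates changes of low genes. Whether the replicate numbers pair the samples was not tested: deviations of same-numbered libraries correlated at 0.025, 0.017 and 0.074, and 4 of 6 libraries correlated best with their own number. Kynu had 153 to 444 counts per library, and with 3 libraries per group differences such as that of Aadat were not separable from replicate spread after adjustment over all genes.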

Other observations

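Nnt, which encodes the mitochondrial transhydrogenase that passes hydrogen between NADH and NADP, was barely expressed. It had 14, 22 and 36 counts in WT and 26, 15 and 35 in the libraries labelled Lpar3-/-, at most 2.18 CPM, although kidney tubules are rich in mitochondria. A second deposited entry of the same name had 0 counts in all 6 libraries. The strain of the mice is not given in the sources used here, and the cause of the low level was not tested.

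The amount of Kynu, Kmo and Ddc in the WT libraries followed 1 order in part: WT replicate 3 was the lowest for all 3 genes (9.25, 88.6 and 110 CPM). The same held for Dpys (7.68 CPM) and Oat (153 CPM), but these were picked for following Kynu over the same libraries. WT replicate 3 was also the lowest WT library for Afmid, Qprt, Acmsd and Naprt, but not for Haao, Aadat, Nadsyn1 or Nampt. All these genes were looked at together after their values were seen, and no test was made.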
